A study of Mus musculus with 6 samples.

Results

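The Pax family comprises the 9 mouse genes Pax1 to Pax9, and its members were taken here as all array probes annotated to those genes. They were covered by 401 probes of 474380 on a promoter array set, and by 9 of 16151 promoter windows. The study measured binding of Rybp, a subunit of variant Polycomb repressive complex 1, in mouse embryonic stem (ES) cells by chromatin immunoprecipitation and array hybridisation (ChIP-chip). The 3 groups were wild-type cells (WT), cells with a constitutive knockout of Eed (Eed-KO) and cells with a constitutive knockout of Dnmt1 (Dnmt1-KO). All groups were cultured with ESGRO, either over irradiated feeder fibroblasts or on gelatin, and fixed with formaldehyde. The labels do not say which culture had feeders, nor how many clones stood behind each knockout. Pax2 and Pax9 lie on the second of 2 array designs and the other members on the first, and with 1 array per design and genotype each Pax promoter was measured once per genotype. There were no replicates, and neither a p-value nor an error between cultures could be computed; the number of arrays limits the precision. The SD and SE given below describe the scatter of neighbouring probes on 1 array.

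Pax proteins are transcription factors that bind DNA through a paired domain and pattern embryonic organs. By sequence and domain content they fall into 4 subgroups: Pax1 with Pax9 (vertebral column, thymus and teeth), Pax2 with Pax5 and Pax8 (kidney, B lymphocytes and thyroid), Pax3 with Pax7 (neural crest and skeletal muscle) and Pax4 with Pax6 (endocrine pancreas and eye). In ES cells, promoters of such developmental regulators are classical Polycomb targets. Eed is needed for the methylation of histone H3 by Polycomb repressive complex 2, a mark that canonical complex 1 recognises, whereas Rybp belongs to complexes that can bind without it. Dnmt1 copies DNA methylation at CpG dinucleotides after replication. The comparisons therefore address whether Rybp stands at these promoters and whether its level differs without Eed or without Dnmt1.

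The probes are short stretches of the promoters themselves. For 8 of the genes the upstream probe with the highest WT level is printed, in the orientation of the array, with CpG in capitals, to show what DNA the strongest upstream signal came from. They were chosen by their level, so that level is a description. Positions are those of the array annotation; its genome build is not stated in the sources used.
Pax1 (chr2:147053231-147053284, 3243 bp upstream): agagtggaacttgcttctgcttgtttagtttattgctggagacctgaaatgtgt
Pax9 (chr12:57609808-57609852, 3820 bp upstream): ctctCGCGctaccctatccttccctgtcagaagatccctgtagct
Pax2 (chr19:44810619-44810664, 63 bp upstream): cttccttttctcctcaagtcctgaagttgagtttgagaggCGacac
Pax5 (chr4:44733490-44733549, 1979 bp upstream): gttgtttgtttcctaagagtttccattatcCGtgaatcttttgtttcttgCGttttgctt
Pax8 (chr2:24297727-24297773, 175 bp upstream): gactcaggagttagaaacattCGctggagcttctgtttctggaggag
Pax3 (chr1:78080452-78080496, 191 bp upstream): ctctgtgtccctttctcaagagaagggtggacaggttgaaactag
Pax7 (chr4:139105764-139105823, 749 bp upstream): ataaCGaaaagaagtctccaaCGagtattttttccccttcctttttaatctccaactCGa
Pax4 (chr6:28401595-28401639, 2332 bp upstream): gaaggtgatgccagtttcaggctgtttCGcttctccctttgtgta
The Pax3 probe read 1.55 in WT, 0.69 in Eed-KO and 0.01 in Dnmt1-KO cells, on the log2 scale of IP over input, and the Pax4 probe 0.88, 0.99 and 0.38 in the same order. The Pax1 and Pax3 probes hold no CpG, the Pax7 probe holds 3, and the others hold 1 or 2.

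In WT cells Rybp was enriched at 7 of the 9 Pax promoters. Each promoter's level was taken as the mean log2 ratio of IP over input in its most enriched run of 6 neighbouring probes, after each array's median had been set to 0, and a level of at least 1 (2-fold) was called bound. By this rule 5.16% of all promoter windows were bound in WT cells. Pax6, Pax9, Pax5, Pax7, Pax3 and Pax1 had the highest levels, from 1.35 down to 1.22, and Pax2 stood at 1.03. These 6 ranked between 168 and 339 among the 16151 windows, and Pax2 ranked 744. Pax8 (0.83, rank 1555) and Pax4 (0.54, rank 3849) were below the limit. The SD over probes was 0.18 to 0.60, so the order among the 6 leading genes is within the scatter of their probes, as is that of neighbours Pax2 and Pax8. The median level of the family was 1.23, against 0.26 over all windows.

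**Figure D1:**
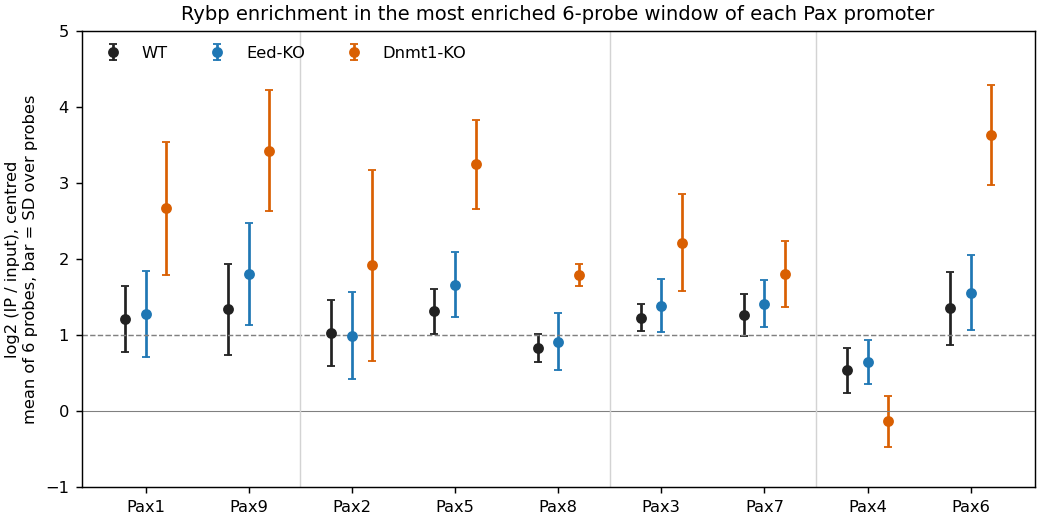
Rybp level (log2 of IP over input, array median set to 0) at each Pax promoter in WT, Eed-KO and Dnmt1-KO cells, ordered by subgroup; points are means of 6 neighbouring probes on 1 array, bars are the SD over those probes, and the dashed line is the 2-fold limit. WT and Eed-KO points lie close together for every gene, 8 Dnmt1-KO points lie above them, and the Pax4 Dnmt1-KO point lies at -0.14.

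Pax1 and Pax9, which act together in the sclerotome that forms vertebrae, differed in where the 6-probe window lay. The Pax1 window (chr2:147052827-147053803) was centred 3178.5 bp upstream of the annotated start, with levels of 1.22 ± 0.43 in WT, 1.27 ± 0.56 in Eed-KO and 2.67 ± 0.87 in Dnmt1-KO cells (SD over 6 probes). A separate stretch downstream of the start, from 1514 to 2421 bp, also had a running mean over 3 probes of at least 1 in WT cells. At 967 bp it was the longest such Pax1 stretch in WT cells. Between 500 and 2700 bp downstream the WT mean was 1.025 at Pax1 and 1.16 at Pax9, for both the highest of the regions read. The Pax9 window (chr12:57614361-57615303) was centred 1253 bp downstream, with levels of 1.34 ± 0.60, 1.80 ± 0.67 and 3.43 ± 0.80 in the same order. At Pax9 the mean was 0.93 in WT cells even between 5600 and 2500 bp upstream, and 21 of its 46 probes reached 1, so the signal extended beyond the window. Pax9 was the member with the highest Eed-KO level, at rank 50 of all windows.

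Pax2, Pax5 and Pax8, which share roles in the kidney, the midbrain border and, for Pax5, B-cell identity, had their signal at different distances from the start. The Pax5 window (chr4:44734502-44735706) was centred 3512.5 bp upstream and had levels of 1.31 ± 0.29 in WT, 1.66 ± 0.42 in Eed-KO and 3.25 ± 0.59 in Dnmt1-KO cells. At its annotated start Pax5 was lower: the 11 probes within 1 kb averaged 0.54 in WT, 0.67 in Eed-KO and 0.97 in Dnmt1-KO cells. In WT cells its longest enriched stretch reached from 2623 to 1126 bp upstream, and in Eed-KO cells 1 stretch of 3723 bp reached from 4615 to 945 bp upstream. With arrays scaled to a common spread, the longest stretch was the same in both, 3895 bp from 4615 to 780 bp upstream. The Pax2 window (chr19:44809664-44810922) lay across the start, with levels of 1.03 ± 0.43, 0.99 ± 0.57 and 1.92 ± 1.26; its Dnmt1-KO mean leaned on 1 probe at 4.13, 1011 bp upstream. The Pax8 window (chr2:24296480-24297453) was centred 730.5 bp downstream, with levels of 0.83 ± 0.19, 0.91 ± 0.37 and 1.79 ± 0.15. Only 3 of the 44 Pax8 probes reached 1 in WT cells, and the probes beyond 2500 bp upstream averaged -0.04.

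Pax3 and Pax7, regulators of muscle progenitors and neural crest, had their windows at similar places. Both lay just downstream of the start, centred at 506.5 bp for Pax3 (chr1:78079212-78080318) and 613.5 bp for Pax7 (chr4:139104099-139104776). Pax3 had levels of 1.23 ± 0.18 in WT, 1.39 ± 0.35 in Eed-KO and 2.22 ± 0.64 in Dnmt1-KO cells. Pax7 had levels of 1.26 ± 0.27, 1.42 ± 0.31 and 1.81 ± 0.43. The longest enriched stretch in WT cells was 2491 bp at Pax3 and crossed the start, from 842 bp upstream to 1589 bp downstream. At Pax3 it began 191 bp upstream in Eed-KO cells (1832 bp) and 10 bp upstream in Dnmt1-KO cells (1754 bp). With arrays scaled to a common spread, the Pax3 stretch was 3649 bp in WT, 1932 bp in Eed-KO and 934 bp in Dnmt1-KO cells. Scaling enlarged the WT log ratios and shrank the Dnmt1-KO ones while the limit stayed at 1. The scaled stretch was longer in WT than in Dnmt1-KO cells at every member but Pax2 (619 and 786 bp), with 3313 and 652 bp at Pax7. On the upstream flank the genes diverged, with a mean beyond 2500 bp of 0.64 at Pax3 and 0.18 at Pax7 in WT cells. The Pax3 probe 191 bp upstream, printed above, stood at 0.01 in Dnmt1-KO cells, where the highest Pax3 probe, 666 bp downstream, stood at 2.96.

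Pax4 and Pax6, which direct islet cells of the pancreas and, for Pax6, the eye, had the lowest and the highest measured level of the family in WT and in Dnmt1-KO cells; in Eed-KO cells Pax4 was again lowest, and Pax9 and Pax5 were above Pax6. The Pax6 window (chr2:105475201-105476318) was centred 1444.5 bp upstream, with levels of 1.35 ± 0.48 in WT, 1.55 ± 0.49 in Eed-KO and 3.63 ± 0.66 in Dnmt1-KO cells, the last a 12.4-fold ratio at rank 28. In WT cells 32 of its 64 probes reached 1, and the longest enriched stretch, 2007 bp from 9347 to 7385 bp upstream, was far from the annotated start. That stretch holds a probe, 7714 bp upstream, that matches the first of the pair of Pax6 promoters in RefSeq, where the WT level was 0.90. The Pax4 window (chr6:28400795-28401639) was centred 1932 bp upstream, with levels of 0.54 ± 0.30, 0.65 ± 0.29 and -0.14 ± 0.34. None of the 35 Pax4 probes reached 1 in any of the 3 genotypes, and the 12 probes within 1 kb of the start averaged -0.02 in WT cells. At Pax6, 1 probe 633 bp upstream read -3.16 in Eed-KO cells against 1.58 in WT and 1.65 in Dnmt1-KO cells, and carried no outlier flag. Its Eed-KO IP signal was 24.7 and its input signal 222. It lies outside the window, but the mean of the Eed-KO probes within 1 kb of the start was 1.11 with it and 1.47 without it.

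**Figure D2:**
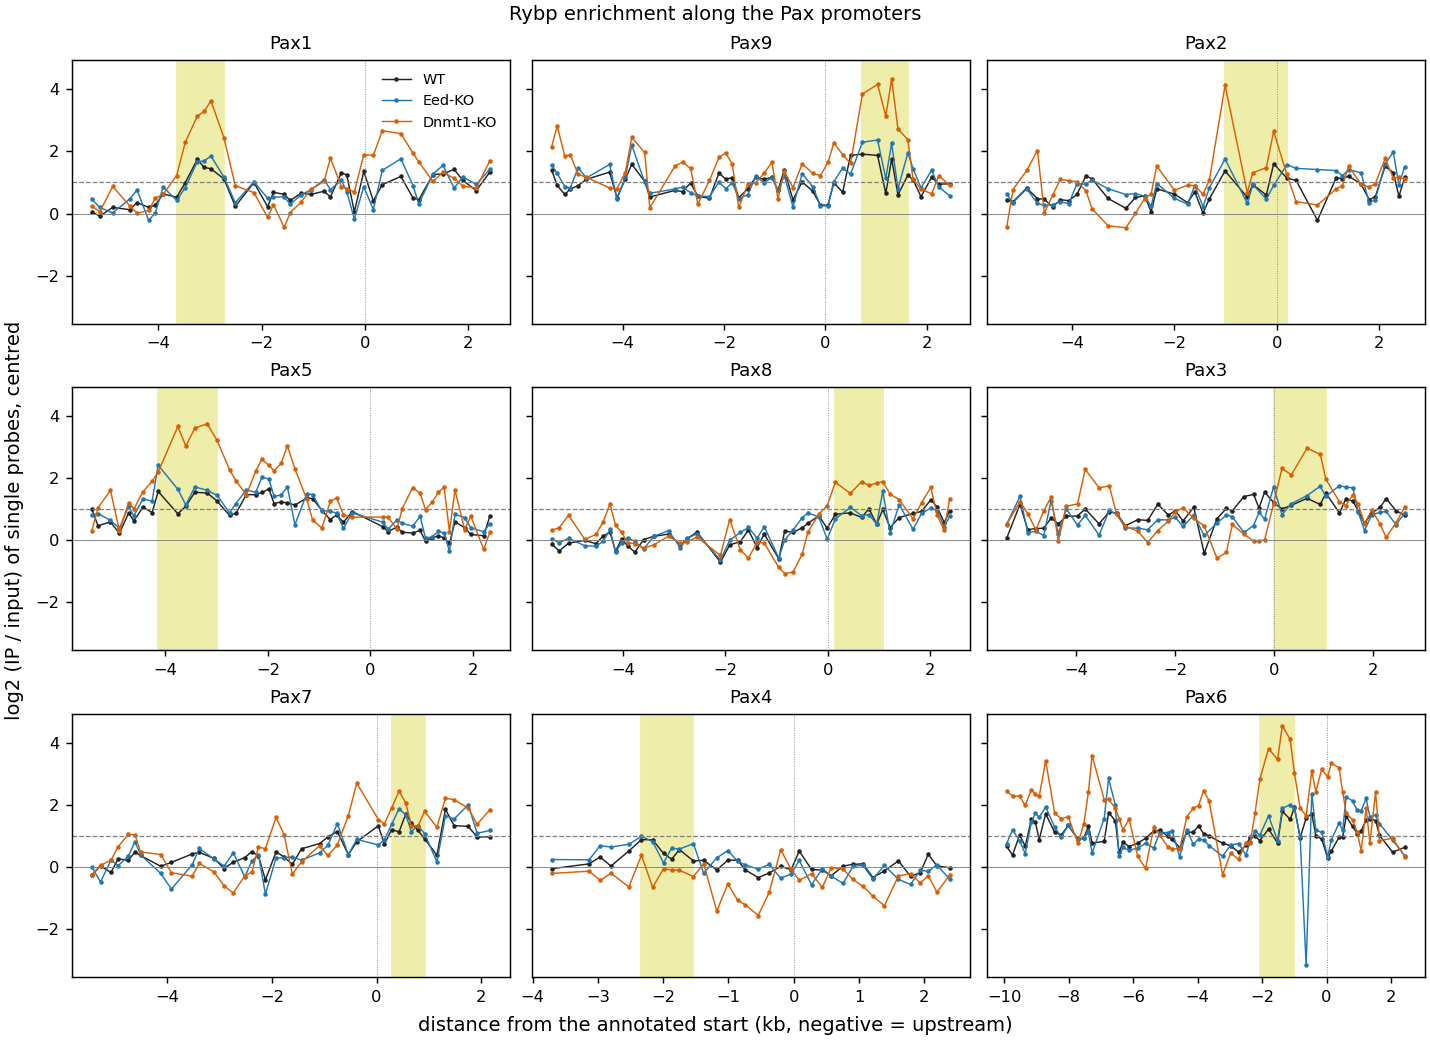
Level of every probe (log2 of IP over input) against distance from the annotated start in kb, one panel per Pax gene and one line per genotype; the shaded band is the 6-probe window and the dashed line the 2-fold limit. The WT and Eed-KO lines mostly follow each other, but just upstream of the Pax3 start the WT line lies higher. The highest point of the Dnmt1-KO line is above those of the others at every gene but Pax4, which stays under the limit. The single low Pax6 point is the Eed-KO probe at -3.16.

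The profile along each promoter was compared between genotypes as a description; the probes of a promoter share chromatin fragments and arrays, so they are not independent. Across the probes of a gene, WT and Eed-KO levels correlated with r between 0.46 (Pax6, 64 probes) and 0.91 (Pax5, 47 probes). Without the probe at -3.16 the Pax6 value was 0.80. The median r over the 828 promoters bound in WT with at least 20 probes was 0.87. Pax3 had the next lowest value, at 0.58 over 45 probes. Between WT and Dnmt1-KO cells r was 0.20 at Pax3 and 0.71 at Pax7, and the median over the same 828 promoters was 0.70.

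In Eed-KO cells Rybp was enriched at 6 of the 9 Pax promoters, with 5.78% of all windows bound by the same rule, and Pax2 at 0.99 lay just below the limit. A difference was called where it had a size of at least 1 in a window bound in either genotype. None of the 7 eligible Pax members was called higher or lower, where over all eligible windows 0.0887% were higher and 0% lower. Nor did any reach a size of 0.5, as 6.47% of eligible windows did. Eed-KO minus WT was 0.46 ± 0.07 at Pax9 and 0.35 ± 0.15 at Pax5 (SE over 6 probes), with 6 of 6 probes higher at both. It was 0.20 ± 0.08 at Pax6 with 5 of 6 probes higher, and between -0.03 and 0.16 at the other members. The family median was 0.15 and 8 of 9 members were above 0, against a median of -0.04 and 40.9% above 0 over all windows.

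These Eed-KO differences depended on the stretch of promoter that was read. Over the probes within 1 kb of the start the family median was 0.02 with 5 of 9 members above 0, and Pax9 was at 0.05, Pax5 at 0.14 and Pax3 at -0.23. Pax6 was at -0.03 there with the probe at -3.16 and at 0.37 without it, which gave 6 of 9 members above 0 and a family median of 0.04. Where windows were chosen on WT and Eed-KO cells alone, the Pax6 window moved to 1012 bp downstream, with levels of 1.38 in WT, 1.98 in Eed-KO and 1.26 in Dnmt1-KO cells, and a difference of 0.60. The Pax2 window then moved to 975 bp downstream, with levels of 0.91, 1.41 and 0.85 and a difference of 0.50. Those windows were chosen with the Eed-KO level itself. The main windows were too, since they were set by the mean over all 3 genotypes. The reading within 1 kb of the start was not. Input and IP were also read apart, each centred on its array's median. Over all Pax9 probes the Eed-KO input was 0.18 and the IP 0.27 above WT on the log2 scale, and within 1 Mb around the gene the input was 0.18 and the IP 0.19 above. The ratio within that 1 Mb differed by 0.03. In the Pax9 window itself the input was 0.12 and the IP 0.58 above WT. At Pax5 the input of the window was 0.03 and the IP 0.38 above WT.

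In Dnmt1-KO cells 8 of the 9 Pax promoters were bound, all but Pax4. The measured level was above WT in 83.6% of all windows, and in 67.9% where the windows were chosen without the Dnmt1-KO level. By the same rule 45.9% of all windows were bound. Dnmt1-KO minus WT was 2.28 ± 0.26 at Pax6, 2.09 ± 0.21 at Pax9, 1.94 ± 0.29 at Pax5 and 1.45 ± 0.21 at Pax1 (SE over 6 probes), with 6 of 6 probes higher at each. These 4 of 8 eligible members were called higher, next to 53.8% of all eligible windows, and none was called lower, next to 0.0403%. The count of 4 therefore does not set the family apart. Pax3 (0.99), Pax8 (0.96), Pax2 (0.89) and Pax7 (0.55) did not reach 1. Pax4 had a difference of -0.67 ± 0.18 with 0 of 6 probes higher, and 1.24% of all windows had a lower one. The family median was 0.99, against 0.60 over all windows. These windows were chosen on all 3 genotypes, Dnmt1-KO included, so the probe counts and SE are not free of that choice. Where WT and Eed-KO alone set them, the family median was 0.67, against 0.32 over all windows, and 2 members were called higher. These were Pax1 (2.67 in Dnmt1-KO, 1.22 in WT) and Pax9 (3.16 and 1.46). Pax5 then read 2.24 and 1.43, and Pax6 1.26 and 1.38. The share of all windows called was not counted with those windows. Over the probes within 1 kb of the start, which no level selected, the family median was 0.43, close to the 0.40 over all windows.

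The Dnmt1-KO arrays had a wider spread of log ratios than the others, with an SD over all probes of 0.96 and 0.91 where the WT and Eed-KO arrays had 0.41 to 0.47. They were also the only ones read on another scanner model and with another software version, so the knockout and the scanner cannot be told apart here. The log2 input signal in the Pax windows, centred per array, was 0.94 (Pax1) to 3.38 (Pax8) above WT, and the IP signal was 2.23 (Pax7) to 5.20 (Pax6) above. At Pax4 the input was 3.16 and the IP 2.49 above WT. The part of the batch in these differences was not tested.

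Once the arrays of a design were scaled to a common spread, before windows were chosen, the family's Dnmt1-KO median was -0.08 against 0.07 over all windows. Bound members then numbered 8 in each genotype, where 13.4% (WT), 10.6% (Eed-KO) and 16.4% (Dnmt1-KO) of all windows were bound. None was called different, next to 2.43% of eligible windows higher and 2.38% lower. The scaled differences were 0.31 ± 0.22 at Pax9, 0.30 ± 0.25 at Pax6 and 0.13 ± 0.24 at Pax5. They were -0.57 ± 0.20 at Pax3, -0.65 ± 0.18 at Pax7 and -0.91 ± 0.17 at Pax4. On this scale Pax4, Pax7 and Pax3 stood below 0, with 0.929%, 3.08% and 4.41% of all windows lower than them, and Pax1, Pax2 and Pax8 were at -0.08, -0.20 and -0.07. The direction at all of these but Pax4 was thus the reverse of that measured. In the windows chosen on all 3 genotypes, only Pax4 was below WT on both scales. Within 1 kb of the start Pax3 was below WT on both scales too, at -0.15 as measured and -1.01 after scaling. Pax4 was at -0.47 and -0.26 there. The Pax6 difference also rested on the window: in the one 1012 bp downstream it was -0.11 before scaling and -1.12 after it.

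**Figure D3:**
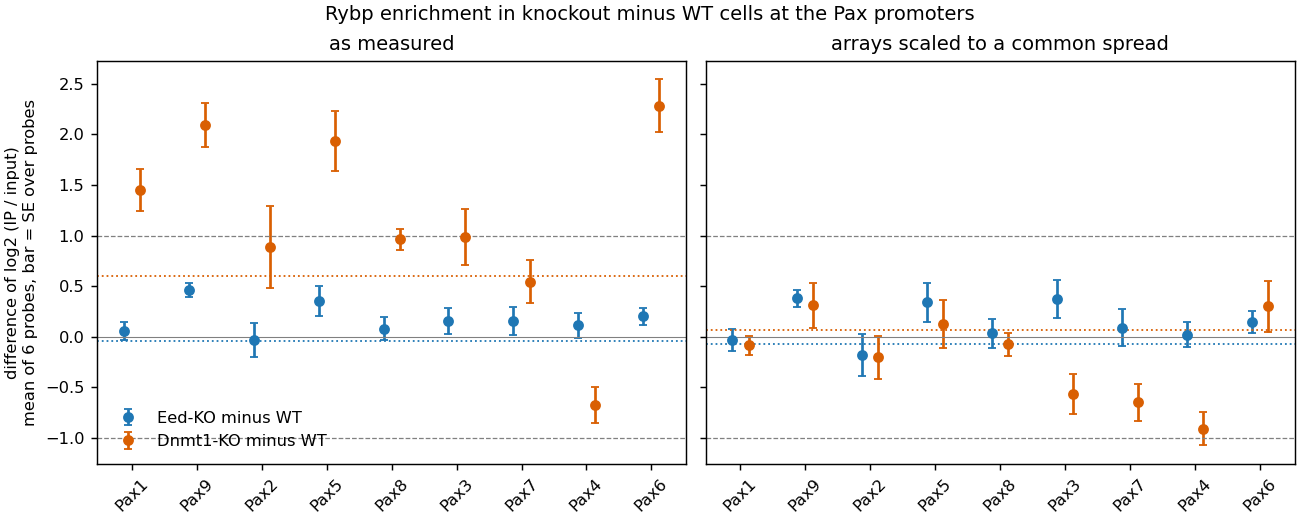
Eed-KO minus WT and Dnmt1-KO minus WT at each Pax promoter (difference of log2 IP over input, mean of 6 probes, bars the SE over probes), as measured on the left and with arrays scaled to a common spread on the right; dotted lines are the medians over all promoter windows and dashed lines the size of 1. Dnmt1-KO differences reach 2.28 as measured and lie between -0.91 and 0.31 after scaling, while Eed-KO differences lie between -0.18 and 0.46 in both panels. Windows were chosen anew after scaling and moved at Pax3 and Pax4.

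Set against Eed-KO cells, Dnmt1-KO cells again had higher measured levels at Pax6 (2.08), Pax9 (1.63), Pax5 (1.58) and Pax1 (1.39). These 4 of 8 eligible members compare with 59.4% of all eligible windows higher, and none was lower, next to 0.0671%. Pax4 stood at -0.79 ± 0.18. After scaling, the differences were 0.15 at Pax6, -0.07 at Pax9 and -0.94 at Pax3, whose window had moved. This comparison shares its arrays with the 2 others.

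**Figure D4:**
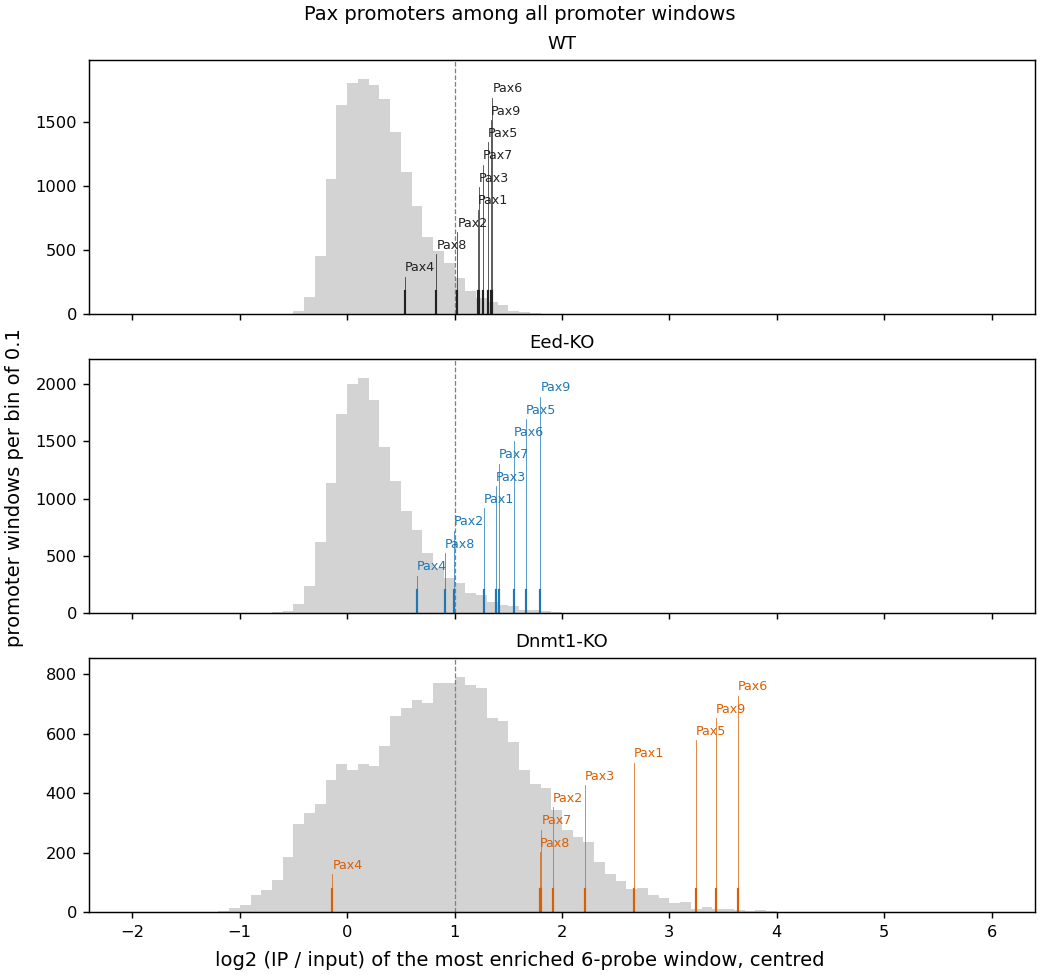
Number of promoter windows per bin of 0.1 in log2 level (grey bars) in WT, Eed-KO and Dnmt1-KO cells, with the 9 Pax promoters marked by lines and the 2-fold limit dashed. In WT cells 7 Pax promoters lie to the right of the limit, in Eed-KO cells 6, and in Dnmt1-KO cells, where the whole distribution is wider, all but Pax4.

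Ranks among all windows of a genotype are given beside the levels, since they use the order only. Pax6 ranked 168 in WT, 135 in Eed-KO and 28 in Dnmt1-KO cells, Pax9 ranked 180, 50 and 45, and Pax5 ranked 214, 86 and 74. Pax1 ranked 339, 376 and 347. Pax7 ranked 275, 224 and 2304, Pax3 324, 258 and 1006, and Pax2 744, 956 and 1845. Pax8 ranked 1555, 1198 and 2362, and Pax4 3849, 2515 and 14423. In Dnmt1-KO cells Pax6, Pax9 and Pax5 thus stood higher in the order than in WT cells, and all other members stood lower. At Pax1 the change was only from 339 to 347. The windows were chosen on the mean over the 3 genotypes.

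The windows of the family had no common CpG content. CpG per 100 bases of window probes was 7.01 at Pax2, 5.50 at Pax9 and 4.56 at Pax3, and 1.96 at Pax5 and 1.72 at Pax4. The median was 2.53 over all windows and 3.63 over those bound in WT cells. The middle 50% of all windows held 1.11 to 4.27. The Pax5 window, far upstream, was thus below the median but within that range, close to the 1.80 of the Pax5 probes outside it, while the Pax9 window, downstream of the start, was above the range. Across the probes of a gene, the Dnmt1-KO level correlated with CpG content with r from 0.23 (Pax2, 40 probes) to 0.46 (Pax7, 41 probes). The range was 0.0079 (Pax2) to 0.40 (Pax7) in WT and -0.13 (Pax6) to 0.34 (Pax8) in Eed-KO cells. It was higher in WT than in Dnmt1-KO cells at Pax5 (0.35 against 0.27) and Pax4 (0.35 against 0.30), and lower at the other members. Over whole arrays the level correlated with GC content in every genotype, with r from 0.24 to 0.45, so base composition is shared by both measures.

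RefSeq promoter windows (GRCm38.p6, 250 bases before to 50 after a start) were found for 7 of the 9 genes, 10 windows in all; Pax3 and Pax4 had none in the table. The 250 bases upstream of the Pax5 and Pax8 starts are printed as a contrast within 1 subgroup, 5′ to 3′ on the gene's strand (minus for both) with CpG in capitals.
Pax5 (chr4:44710695-44710944): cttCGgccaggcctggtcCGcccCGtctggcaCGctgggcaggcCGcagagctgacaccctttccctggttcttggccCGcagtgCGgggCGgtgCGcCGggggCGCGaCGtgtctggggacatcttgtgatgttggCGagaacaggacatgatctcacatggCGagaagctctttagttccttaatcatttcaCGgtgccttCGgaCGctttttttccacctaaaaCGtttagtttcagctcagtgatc
Pax8 (chr2:24475600-24475849): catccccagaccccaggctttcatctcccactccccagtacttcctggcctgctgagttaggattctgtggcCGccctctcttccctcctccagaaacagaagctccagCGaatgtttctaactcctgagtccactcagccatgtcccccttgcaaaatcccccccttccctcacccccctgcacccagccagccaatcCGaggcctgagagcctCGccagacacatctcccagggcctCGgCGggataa
The Pax5 stretch holds 19 CpG and the Pax8 stretch 6. The array probe inside the Pax5 window, 351 bp upstream of the array's annotated start, read 0.93 in WT, 0.88 in Eed-KO and 0.74 in Dnmt1-KO cells, and the pair of probes inside the Pax8 window averaged 0.59, 0.39 and 0.98. The whole 300-base windows held from 7 (Pax8 and the first Pax2 start) to 30 CpG (the third Pax2 start), with a median of 7 over 32851 promoters in the table. The E-box CACGTG, the same on both strands, was in none of the 10 and in 7.15% of all promoters of that length. GGCGGGA or its complement TCCCGCC, a motif bound by E2F factors, was in 4 of the 10 (Pax7, Pax8, the first Pax6 start and the second Pax2 start) and in 11.3% of all. These are letter matches in these windows only, and the shares over all promoters were not matched for CpG content.

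Genes that work with Pax factors were read from 3 lists. Genes of the Six2, Eya1 and Dach1 families form a regulatory network with Pax genes in eye, ear and kidney. Of its 10 members 2 were bound in WT, 4 in Eed-KO and 8 in Dnmt1-KO cells, where 5.16%, 5.78% and 45.9% of all windows were bound, and the median WT level was 0.61 against 0.26 over all windows. Six2, which keeps kidney progenitors undifferentiated, had the highest WT level (1.46) and Dach1 the next (1.17); Eya2 (0.05) and Eya3 (0.33) had the lowest. Eed-KO minus WT was lowest at Six4, at -0.10, with a median of 0.07 over the list and none called. Dnmt1-KO minus WT ran from -0.04 at Eya3 to 2.22 at Dach2, with 6 of 8 eligible members called higher, next to 53.8% of all eligible windows; the median was 1.05, and 0.05 after scaling.

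The developmental partners of Pax genes, 36 transcription factors and signalling genes of the same organs, were read by the same rules. In WT cells 18 were bound, in Eed-KO 25 and in Dnmt1-KO 31, next to the same shares of all windows (5.16%, 5.78% and 45.9%), and the median WT level was 1.01. Nkx3-2, a sclerotome gene downstream of Pax1 and Pax9, had the highest WT level at 1.59 and Nkx2-2, a pancreatic and neural patterning gene, the next at 1.58. Mitf (-0.09) and Tbx6 (-0.08) had the lowest. Eed-KO minus WT had a median of 0.15, the same as that of the Pax family, and was lowest at Met, the receptor that guides muscle precursors, at -0.40. None of the 26 eligible members was called. Dnmt1-KO minus WT ran from -0.12 at Gdnf to 2.90 at Gata3, with 14 of 31 eligible members called higher, next to the same 53.8%; its median was 0.77, and -0.30 after scaling.

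The third list held 21 genes of differentiated cells that Pax factors regulate, 18 of which had a window. None was bound in WT or Eed-KO cells and 3 in Dnmt1-KO cells, next to 5.16%, 5.78% and 45.9% of all windows, and the median WT level was 0.08. The thyroid genes Tshr (0.67) and Slc5a5 (0.54) had the highest WT levels, and Tyrp1 (-0.15), a pigment gene, had the lowest. Eed-KO minus WT had a median of 0.04 and ran from -0.27 at Tg to 0.28 at Sst. Dnmt1-KO minus WT had a median of 0.26 and ran from -0.50 at Ins2 to 1.15 at Slc5a5, the only one of 3 eligible members called higher, next to 53.8% of all eligible windows; after scaling the median was -0.06. Pax4 had a WT level between the median of this list and that of the Six2, Eya1 and Dach1 network.

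For Pax6, the member with the highest WT level, the 3 promoters nearest in the 3 genotype levels were Ascl2 (1.35 in WT, 1.53 in Eed-KO, 3.66 in Dnmt1-KO; Euclidean distance 0.04), Fzd7 (1.35, 1.39 and 3.60; 0.16) and Npr3 (1.26, 1.64 and 3.76; 0.18). Likeness over 3 values is weak by construction. Levels of cell type markers were read as background only, since antibody enrichment of DNA does not test what the cells are: none of 7 ES cell genes and 4 of 8 fibroblast genes were bound in WT cells, with medians of 0.74 and 0.95.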

How the data were processed

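The 6 arrays of 2 Agilent promoter designs carried input DNA in Cy3 (green) and anti-Rybp IP DNA in Cy5 (red), per the labels. The deposited spot intensities are background-subtracted, dye-normalised processed signals, per the file headers. The headers name Agilent Feature Extraction 9.5.3.1 and scanner G2505B for WT and Eed-KO and version 10.1.1.1 and scanner G2505C for Dnmt1-KO, whereas the submitters' processing notes list 9.5.3.1 for every sample. The authors' deposited value table holds log10 ratios of red over green; each column differed from the scanner ratio of its array by 1 constant within 0.001 for 100% of probes, which settles scale and direction, while the choice of the constants is unknown. Its column medians were -0.025, -0.0317 and -0.121 on array 1 (WT, Eed-KO, Dnmt1-KO) and -0.027, -0.0316 and -0.1142 on array 2.

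Levels were log2 of red over green processed signal, centred on the median of non-control probes, without loess or quantile normalisation. A probe with an outlier flag on any array was dropped from its design, which took out none of the Pax probes. A window is a gene's run of 6 neighbouring probes, within 3 kb, whose mean across all 3 genotypes was highest. Input was well above background for 99.9% or more of probes on the WT and Eed-KO arrays and for 88.1% and 85.8% on the Dnmt1-KO arrays, whose headers set a stricter multiplier (13 against 2.6). Gene assignments were read from the Dnmt1-KO files' annotation, with symbols updated through the RefSeq gene table (GRCm38.p6), which matched 17554 of 18267 accessions. Scaling brought the arrays of a design to the geometric mean of their median absolute deviations.

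No test was possible with 1 array per genotype and design, so fixed sizes were used. Named genes were every Pax member; in each list the 2 highest and 2 lowest WT levels and the highest and lowest difference per knockout; and the 3 promoters nearest to the member with the highest WT level. Some items that the rule names are not reported here. The members and lists were chosen with earlier results of these data known. The window search was tested on simulated levels. Python 3.11.15 with pandas 2.3.3 and, for the normexp alternative (offset 50), limma 3.58.1 in R 4.3.3 were used. The 15 alternatives planned and 3 added after seeing the data are covered in the closing section.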

Additional observations from a re-analysis of the deposited data

How the results depend on the processing

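Without replicates, these values show dependence on processing only; a cause is named only where an alternative's construction gives it, and otherwise the cause was not tested. Bound Pax members in WT cells numbered 4 with normexp background correction, 3 over probes within 1 kb of the start and 0 at a 3-fold limit. In Eed-KO cells they numbered 3 within 1 kb and 2 at 3-fold, and in Dnmt1-KO cells 2 within 1 kb with arrays scaled. Counts over all windows moved too. In WT cells 402 of 16161 windows were bound with normexp and 244 of 15977 within 1 kb, against 833 of 16151 in the main setting. Within 1 kb 279 of 15977 were bound in Eed-KO cells, and 1139 in Dnmt1-KO cells with scaling. No count over all windows was made at the 1.5-fold and 3-fold limits. No Pax member was called in Eed-KO cells under any of the alternatives run. Within 1 kb with scaling, the median of Eed-KO minus WT was -0.044.

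Dnmt1-KO minus WT had a Pax median of -0.085 with arrays scaled, -0.51 with GC content removed and scaling, -0.26 within 1 kb with scaling, and -0.62 with windows set by WT and Eed-KO and scaling. Against Eed-KO the medians were -0.11, -0.59, -0.27 and -0.82 in that order. Members called higher numbered 0 under each of these 4 for both comparisons, 2 where WT and Eed-KO set the windows, 1 within 1 kb, and 8 (against WT) or 7 (against Eed-KO) at a size of 0.5. Called lower against WT was 1 within 1 kb with scaling and 1 with those windows and scaling. Against Eed-KO it was 1 with GC removed and scaling and 2 with those windows and scaling. The share of all windows called was counted for the main setting and, against WT, with arrays scaled, but not for the others. In the main setting the median difference over all windows was 0.60 against WT and 0.64 against Eed-KO, already above 0.5.

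Members not called higher also changed sign in Dnmt1-KO minus WT with scaling, to -0.20 at Pax2, -0.57 at Pax3, -0.65 at Pax7 and -0.07 at Pax8. The Pax3 window had moved with scaling. For the 4 members called higher, the single Dnmt1-KO minus WT values that changed sign were as follows. Pax1 was -0.085 with scaling, -0.0060 with GC removed and scaling, -0.17 within 1 kb scaled and -0.085 with windows on WT and Eed-KO scaled. Pax5 was -0.36, -0.16 and -0.62 in the last 3. Pax9 was -0.0064, -0.25 and -0.013 in them. Pax6 was -0.11 with windows on WT and Eed-KO, -0.12 within 1 kb scaled and -1.12 with those windows scaled. Against Eed-KO, Pax1 was -0.055, -0.13 and -0.055 with scaling, within 1 kb scaled and those windows scaled. Pax5 was -0.21, -0.59, -0.29 and -0.82, and Pax9 -0.067, -0.18, -0.19 and -0.23, with scaling, GC removed and scaling, within 1 kb scaled and those windows scaled. Pax6 was -0.72 with those windows and -1.77 with scaling too.

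In the Six2, Eya1 and Dach1 network, the WT count was 4 with mode centring, scaling, GC removed and scaling, windows of 4 probes, windows on WT and Eed-KO with or without scaling, and within 1 kb scaled; it was 0 within 1 kb, 5 at 1.5-fold and 0 at 3-fold. Its Eed-KO count was 1 with normexp and within 1 kb, 2 within 1 kb scaled, 7 at 1.5-fold and 0 at 3-fold. Its Eed-KO median difference was -0.060 with GC removed and scaling and -0.063 with windows on WT and Eed-KO scaled. Its Dnmt1-KO median was 0.046 scaled, -0.0060 with GC removed and scaling, 0.29 within 1 kb scaled and 0.046 with those windows scaled. Over all windows the WT count was 1021 of 16151 with mode centring, 2168 of 16150 scaled and 1790 of 16089 with GC removed and scaling. It was 1200 of 16266 with windows of 4 probes and 989 of 15977 within 1 kb scaled. Windows on WT and Eed-KO gave 941 of 16129, and 2255 with scaling. In Eed-KO cells 571 of 16161 were bound with normexp and 704 of 15977 within 1 kb scaled.

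Among the developmental partners, the WT count was 4 with normexp, 29 scaled, 28 with GC removed and scaling, 5 within 1 kb, 29 with windows on WT and Eed-KO scaled, 30 at 1.5-fold and 1 at 3-fold. The Eed-KO count was 15 with normexp, 9 within 1 kb and 4 at 3-fold, and the Dnmt1-KO count 16 with GC removed and scaling, 14 within 1 kb scaled and 18 with those windows scaled. The Dnmt1-KO median was -0.30 scaled, -0.35 with GC removed and scaling, -0.059 within 1 kb scaled and -0.39 with those windows scaled. Among the differentiation genes, the WT count was 1 at 1.5-fold, and the Eed-KO count 1 scaled, 2 with those windows scaled and 2 at 1.5-fold. Their Dnmt1-KO count was 0 scaled, with GC removed and scaling, within 1 kb scaled and with those windows scaled, 1 with GC removed, within 1 kb and at 3-fold, and 7 at 1.5-fold. Their Dnmt1-KO median was -0.32 with windows on WT and Eed-KO and -0.42 with scaling too. Over all windows the Dnmt1-KO count was 2655 of 16150 scaled, 4899 of 16088 with GC removed and 1469 of 16089 with GC removed and scaling. It was 4676 of 15977 within 1 kb, 1139 of 15977 within 1 kb scaled and 1924 of 16129 with those windows scaled. The Eed-KO count was 1715 of 16150 scaled and 1833 of 16129 with those windows scaled.

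Of the other comparisons of summary values with an alternative, 336 stayed within their spread or within 1.5 times the count. No paired analysis was possible because each genotype had 1 array per design and no test was made.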
